A study of Mus musculus with 10 samples.

Results

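Lymphoid priming is read here from 10 genes, *Il7r*, *Flt3*, *Dntt*, *Rag1*, *Rag2*, *Ikzf1*, *Ebf1*, *Satb1*, *Igll1* and *Cd79a*, and all 10 were found by symbol among the 25078 genes of the deposited count table. The set was put together around *Il7r*, which was selected on its own measured level: lower in the CM/miR-126Δ/Δ mice of this series. The difference between genotypes had therefore already been used to choose it. It is given for all members as a description without a test, and the tests below concern the variation between mice of the same genotype.

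RNA-seq was performed on LSK cells, the lineage-negative, Sca-1+ and c-Kit+ fraction of mouse bone marrow that holds stem cells and multipotent progenitors, to find pathways that depend on miR-126 in preleukemia. The CM group (n = 5 mice) carried the *Cbfb* 56M/+ knock-in, which expresses the leukemia fusion *Cbfb-MYH11* (CM) after recombination, together with *Mx1-Cre*. The CM/miR-126Δ/Δ group (n = 5 mice) carried the same knock-in and the same Cre plus miR-126 flox/flox, so that miR-126 was deleted in the same cells. All 10 mice were on a C57BL/6 background, 6 to 8 weeks old when poly(I:C) was started, and sampled 6 weeks after its last dose. Mice without the CM allele are not analysed here, so every level below is that of a CM-expressing marrow. *Mx1-Cre* is switched on by interferon and also recombines outside blood cells, which limits both groups as a model of a change confined to LSK cells. Each library was made from 1 mouse, and a bulk library cannot tell fewer cells that express a gene from less of its RNA per cell.

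Multipotent progenitors begin to transcribe lymphoid genes before they commit to a lineage. FLT3, the receptor for FLT3 ligand, rises first, and the transcription factors encoded by *Ikzf1* (Ikaros) and *Satb1* and the polymerase encoded by *Dntt* (TdT) accompany it in lymphoid-primed multipotent progenitors. The IL-7 receptor, the RAG recombinase and then EBF1 mark common lymphoid and early B-cell progenitors, and the surrogate light chain gene *Igll1* and the B-cell receptor signalling chain gene *Cd79a* are targets of EBF1 in the B lineage.

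The libraries held 23649233 to 33202086 counts, which puts 3 counts at 0.0908 to 0.131 CPM (counts scaled to library size with TMM factors). The precursor transcript *Mir126a* had 0 to 5 counts in the CM libraries and 0 counts in the 5 CM/miR-126Δ/Δ libraries, too few for a fold change. Of the genes of the sort itself, *Kit* lay at 702 to 1001 CPM and *Ly6a*, which encodes Sca-1, at 43.6 to 70.3 CPM. Lineage genes were not uniformly low. *Cd3e*, of T cells, stayed at or below 2.61 CPM. *Itgam*, a granulocyte-monocyte marker, reached 70.4 to 133.5 CPM in CM and 61.96 to 74.12 CPM in CM/miR-126Δ/Δ. *Itga2b*, a megakaryocyte marker, reached 134.2 to 200.4 CPM in CM and 101.7 to 167.7 CPM in CM/miR-126Δ/Δ. Counts of X- and Y-linked genes gave 3 female and 2 male mice in each group.

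The microRNA that differs between the groups is shown first, with the seed that was matched to the 3′UTRs of the members. Mature miR-126a-3p is encoded at chr2:26591402-26591423 on the plus strand (RefSeq, GRCm38.p6), and capitals mark the seed, bases 2 to 8.
miR-126a-3p: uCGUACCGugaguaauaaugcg
The 6-base seed match GGTACG was absent from the longest 3′UTR of all 10 members in the transcript sequences used here. Genes that reached a mean of 1 RPKM (CPM per kilobase of exon) in either group are called expressed here. Among 9638 expressed genes with a 3′UTR sequence, 345 (3.58%) held it. Absence of this match does not decide whether a transcript is bound, and only the -3p strand was searched.

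Of the 10 genes, 4 were abundant and 6 were scarce in LSK cells, compared per length of transcript. Over the 10 mice, *Dntt* had a mean of 154 ± 40.3 RPKM (SD), *Flt3* 115 ± 15.1 RPKM, *Ikzf1* 87.5 ± 5.94 RPKM and *Satb1* 36.4 ± 5.57 RPKM. These are the genes of the multipotent, lymphoid-primed stage, and *Dntt* and *Flt3* ranked 161st and 267th of 18747 genes by level. *Il7r* followed at 4.23 ± 2.10 RPKM. *Rag2* (1.29 ± 0.429 RPKM), *Cd79a* (1.28 ± 0.905 RPKM), *Igll1* (1.23 ± 1.10 RPKM), *Rag1* (0.830 ± 0.484 RPKM) and *Ebf1* (0.441 ± 0.245 RPKM) lay below it. Along this order the ranges over mice were apart only between *Ikzf1* and *Satb1* and between *Satb1* and *Il7r*. *Flt3* exceeded *Ikzf1*, *Il7r* exceeded *Rag2* and *Rag1* exceeded *Ebf1* within each of the 10 mice, although their ranges over mice met. *Rag2* and *Cd79a* could not be ordered, since *Rag2* was the higher in 4 mice of 10.

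*Il7r* (chr15:9506159-9529876, minus strand, mm10, 3210 exonic bases) encodes the IL-7 receptor alpha chain. In the CM mice 1 to 5 it measured 10.3, 28.2, 15.4, 17.3 and 18.4 CPM. In the CM/miR-126Δ/Δ mice 1 to 5 it measured 8.86, 9.85, 8.88, 14.4 and 4.24 CPM. CM/miR-126Δ/Δ mice 1, 2, 3 and 5 lay below every CM mouse, while mouse 4 lay inside the CM range, between CM mice 1 and 3. The means were 17.9 ± 6.53 CPM for CM (SD, n = 5) and 9.25 ± 3.62 CPM for CM/miR-126Δ/Δ (SD, n = 5), a 1.93-fold lower level in the latter, with a log2 fold change of -0.95 (SE 0.280). CM mouse 2 was the highest of all, and without it the log2 fold change was -0.73.

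*Flt3* (chr5:147330742-147400489, minus strand) differed far less. Its levels were 343, 497, 422, 418 and 454 CPM in the CM mice, and 377, 372, 492, 359 and 456 CPM in the CM/miR-126Δ/Δ mice. The lowest mouse of all, CM mouse 1, and the highest, CM mouse 2, both belonged to CM, and the CM/miR-126Δ/Δ mice lay between them. The log2 fold change was -0.05 (SE 0.110).

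The recombination genes were lower on average in CM/miR-126Δ/Δ, with overlap. *Dntt* (chr19:41029275-41059525, plus strand), whose product adds untemplated bases at V(D)J junctions, measured 221, 475, 389, 350 and 333 CPM in the CM mice, and 292, 242, 433, 311 and 234 CPM in the CM/miR-126Δ/Δ mice. The values of the groups were interleaved, and the log2 fold change was -0.23 (SE 0.188). *Rag1* and *Rag2*, neighbours on chromosome 2 (chr2:101638252-101649532, minus strand, and chr2:101624712-101632528, plus strand), encode the recombinase that cuts at V(D)J segments. *Rag1* measured 4.72, 11.8, 3.40, 8.47 and 7.26 CPM in the CM mice, and 4.60, 5.81, 1.92, 6.65 and 0.741 CPM in the CM/miR-126Δ/Δ mice. *Rag2* measured 4.12, 6.25, 6.06, 5.61 and 5.28 CPM in the CM mice, and 2.49, 3.75, 4.79, 4.08 and 1.81 CPM in the CM/miR-126Δ/Δ mice. CM mice 2, 4 and 5 had more *Rag1* than any CM/miR-126Δ/Δ mouse, and CM mice 2 to 5 had more *Rag2* than any CM/miR-126Δ/Δ mouse. The log2 fold change was -0.85 (SE 0.452) for *Rag1* and -0.69 (SE 0.231) for *Rag2*.

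The transcription factors fell into 2 abundant genes and 1 scarce gene. *Ikzf1* (chr11:11685925-11772926, plus strand) ranged from 460 to 540 CPM in the CM mice, and from 460 to 562 CPM in the CM/miR-126Δ/Δ mice, with a log2 fold change of -0.02 (SE 0.0757). *Satb1* (chr17:51736187-51833290, minus strand), a chromatin organiser, ranged from 207 to 281 CPM in the CM mice, and from 212 to 339 CPM in the CM/miR-126Δ/Δ mice, with a log2 fold change of -0.01 (SE 0.120). In both genes the highest value belonged to CM/miR-126Δ/Δ mouse 3. *Ebf1* (chr11:44618100-45008096, plus strand), the factor that commits progenitors to the B lineage, measured 1.61, 5.06, 2.21, 3.13 and 2.94 CPM in the CM mice, and 1.82, 3.27, 0.827, 3.17 and 0.412 CPM in the CM/miR-126Δ/Δ mice. CM/miR-126Δ/Δ mice 3 and 5 were the lowest of the 10, mice 2 and 4 lay above 4 of the 5 CM mice, and the log2 fold change was -0.65 (SE 0.453).

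The B-lineage genes were measured from few reads. *Igll1* (chr16:16860671-16863985, minus strand), the lambda-5 chain of the pre-B-cell receptor, had 16, 58, 9, 82 and 51 counts in CM and 9, 22, 0, 52 and 5 counts in CM/miR-126Δ/Δ. Scaled to library size these were 0.484, 1.92, 0.368, 2.76 and 1.68 CPM and 0.334, 0.888, 0, 2.06 and 0.206 CPM. *Cd79a* (chr7:24897497-24901858, plus strand) measured 0.848, 2.18, 0.614, 1.71 and 1.78 CPM in the CM mice, and 0.853, 1.49, 0.0435, 2.97 and 0.329 CPM in the CM/miR-126Δ/Δ mice. For both genes CM/miR-126Δ/Δ mouse 3 was the lowest mouse and mouse 5 the next lowest, and for *Cd79a* mouse 4 was the highest of all 10. The log2 fold change was -1.04 (SE 0.736) for *Igll1* and -0.32 (SE 0.623) for *Cd79a*.

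**Figure D1:**
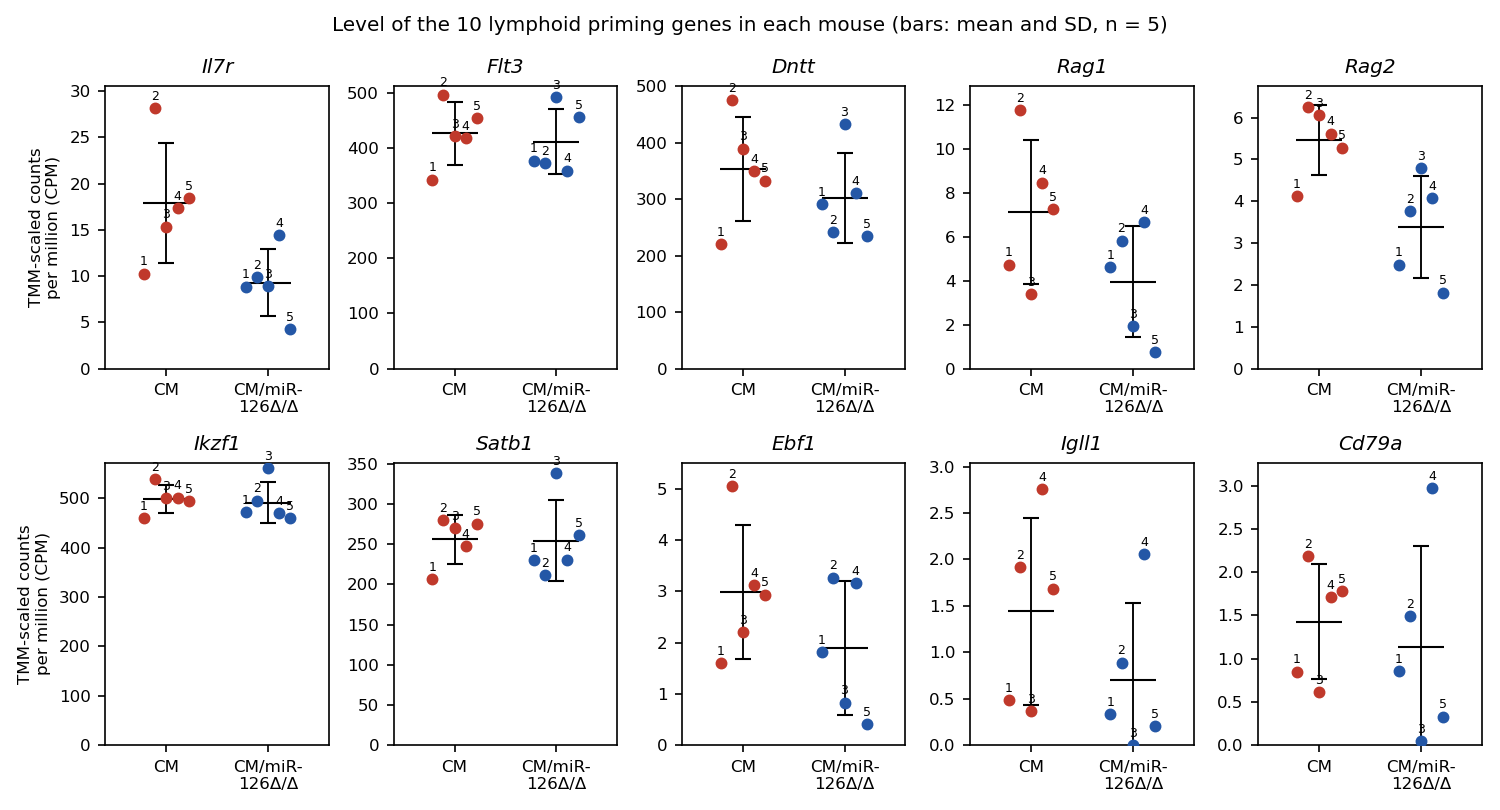
CPM (vertical axes, from 0) of the 10 genes in each mouse; points carry the mouse number, red for CM and blue for CM/miR-126Δ/Δ, and bars show the mean and SD of 5 mice. CM mouse 2 was the highest CM mouse for 9 of the 10 genes, and no gene separated the groups fully.

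All 10 log2 fold changes were below 0, with a median of -0.49, as were 57.5% of the 11682 expressed genes, whose median was -0.02. The call rule, taken from the study's methods (p at or below 0.01, at least 1.5-fold, and expressed, without adjustment for the number of genes) was met by 54 of 18747 genes (0.288%), 18 of them lower in CM/miR-126Δ/Δ (0.096%), and among the members by *Il7r* and *Rag2*. Since the set was built on this contrast, nothing is read from that count. The study's own list of called genes at these cutoffs was longer, and the reason for the difference was not tested. In none of the 10 genes were the 5 CM/miR-126Δ/Δ mice all below the 5 CM mice, a separation seen for 85 of the 11682 genes (0.728%). The largest spread between mice was in the scarce genes, with coefficients of variation within CM/miR-126Δ/Δ of 119% for *Igll1* and 102% for *Cd79a* against 8.41% for *Ikzf1*.

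**Figure D2:**
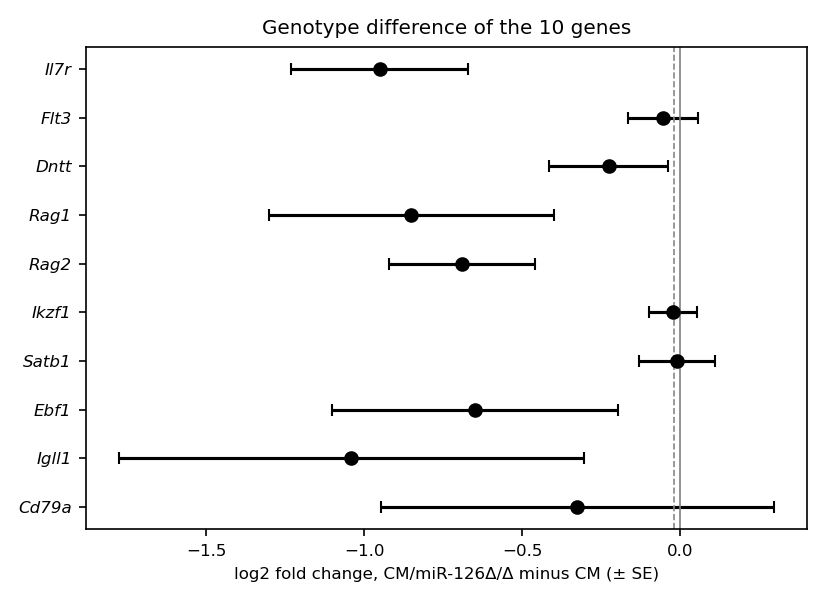
Log2 fold change of each gene, CM/miR-126Δ/Δ minus CM (horizontal axis; bars: ± SE from edgeR), with a solid line at 0 and a dashed line at the median of the expressed genes (-0.02). *Il7r* and *Rag2* lie farthest from 0 in units of SE, and *Flt3*, *Ikzf1*, *Satb1* and *Cd79a* lie within 1 SE of 0.

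The same mice tended to be high or low for several members. CM mouse 2 was the highest CM mouse for 9 members, all but *Igll1*, and CM mouse 1 was the lowest for 7. In CM/miR-126Δ/Δ the pattern was divided: mouse 3 was the highest for *Flt3*, *Dntt*, *Rag2*, *Ikzf1* and *Satb1* yet the lowest for *Igll1* and *Cd79a*, mouse 4 was the highest for *Il7r*, *Rag1*, *Igll1* and *Cd79a* yet the lowest for *Flt3*, and mouse 5 was the lowest for 6 members.

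Whether members vary together was asked within genotypes, which the choice of the set did not use. For this, the log2 CPM of *Il7r* was added to the genotype as a covariate in edgeR's quasi-likelihood fit of all genes, and the slope is the log2 change of a gene per log2 change of *Il7r* between mice of the same genotype. All 9 other members had a slope above 0, as did 46.2% of expressed genes. At an unadjusted p under 0.05 there were 6 of 9 members against 6.87% of all genes. The B-lineage genes and *Rag1* had the steepest slopes. The slope was 1.46 for *Ebf1* (SE 0.282, unadjusted p = 0.000167, adjusted p = 0.289) and 1.40 for *Rag1* (SE 0.296, unadjusted p = 0.000366, adjusted p = 0.289). *Igll1* (slope 1.90, SE 0.621) and *Cd79a* (1.55, SE 0.478) were as steep with wider errors, and *Rag2* (0.55, SE 0.189) and *Dntt* (0.42, SE 0.155) were shallower. The slopes of *Ikzf1* (0.08, SE 0.0743), *Satb1* (0.05, SE 0.120) and *Flt3* (0.03, SE 0.110) did not pass an unadjusted p of 0.05. For *Flt3* the slope pools a Pearson r of 0.970 among CM mice with one of -0.619 among CM/miR-126Δ/Δ mice. With Benjamini-Hochberg adjustment over 18746 genes edgeR called no gene (1288 had an unadjusted p under 0.05), whereas DESeq2 called 41 genes, among them *Ebf1* and *Rag1* (DESeq2 adjusted p = 0.00172 for each). *Ebf1* and *Rag1* kept an unadjusted p under 0.05 in all 10 fits that left out 1 mouse, with slopes of 1.23 to 1.62 and 1.06 to 1.76. *Igll1* and *Cd79a* lost it without CM/miR-126Δ/Δ mouse 4, *Rag2* without CM/miR-126Δ/Δ mouse 5, and *Dntt* without CM mouse 1 or without CM mouse 2.

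*Dntt* and *Flt3* as covariates brought out a partly different set of members. With *Dntt*, 9 of 9 slopes were above 0 (48.7% of expressed genes), and 5 of 9 members had an unadjusted p under 0.05 (2.57% of all genes). These were *Satb1* (slope 0.47, SE 0.124), *Il7r* (0.98, SE 0.357), *Rag2* (0.76, SE 0.278), *Flt3* (0.35, SE 0.136) and *Ikzf1* (0.22, SE 0.0963). With *Flt3*, 5 of 9 slopes were above 0 (48.1% of expressed genes), and 2 of 9 members had an unadjusted p under 0.05 (6.2% of all genes). These were *Satb1* (slope 1.04, SE 0.186, unadjusted p = 9.48e-05, adjusted p = 0.540) and *Dntt* (1.34, SE 0.407). After adjustment edgeR called no gene with either covariate (482 and 1163 unadjusted), and DESeq2 called 3 genes with *Dntt*, no member among them, and 28 with *Flt3*, *Satb1* among them. *Satb1* kept an unadjusted p under 0.05 on both covariates without any 1 mouse. The *Dntt* count fell to 2 of 9 members without CM mouse 1, without CM mouse 2 or without CM/miR-126Δ/Δ mouse 3.

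**Figure D3:**
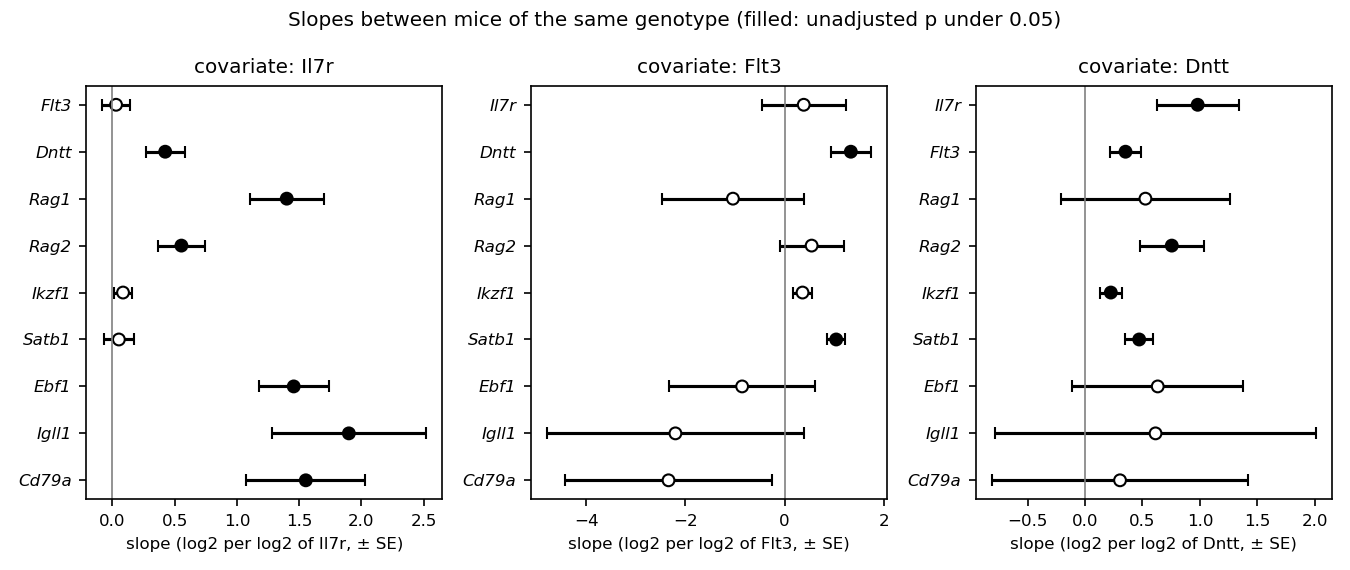
Slope of each member (horizontal axes, log2 per log2, ± SE) on *Il7r*, *Flt3* and *Dntt* between mice of the same genotype, from edgeR; filled points have an unadjusted p under 0.05. Filled points are *Dntt*, *Rag1*, *Rag2*, *Ebf1*, *Igll1* and *Cd79a* on *Il7r*, *Dntt* and *Satb1* on *Flt3*, and *Il7r*, *Flt3*, *Rag2*, *Ikzf1* and *Satb1* on *Dntt*.

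Taken over the 45 pairs of members, log2 CPM centred on genotype gave 33 Pearson r above 0, with a median of 0.477. All pairs share the same 10 libraries and their scaling, and the p-values below are exact, from 14400 permutations of mice within genotype, two-sided and not adjusted. A first block joined *Rag1* and *Ebf1* (r = 0.957, exact p = 0.000417, Spearman's rho = 0.952, exact p = 0.00104, and r = 0.982 without the 2 farthest mice) and *Igll1* and *Cd79a* (r = 0.962, exact p = 0.000417, rho = 0.915, exact p = 0.00181, and r = 0.907 without the 2 farthest mice). *Il7r* was tied to it through *Ebf1* (r = 0.879, exact p = 0.000556, rho = 0.782, exact p = 0.00965, and r = 0.717 without the 2 farthest mice). The r of *Il7r* was 0.846 to *Rag1* (exact p = 0.0034), 0.567 to *Igll1* (exact p = 0.1255) and 0.564 to *Cd79a* (exact p = 0.133, rho = 0.758). A second block held *Flt3*, *Satb1*, *Ikzf1* and *Dntt*, led by *Flt3* and *Satb1* (r = 0.910, exact p = 0.000972, rho = 0.927, exact p = 0.000972, and r = 0.856 without the 2 farthest mice). In this block *Dntt* and *Ikzf1* had an r of 0.849 (exact p = 0.00528, rho = 0.709), and 0.699 without the 2 farthest mice. *Dntt* and *Satb1* had an r of 0.793 (exact p = 0.0167, rho = 0.709), and 0.488 without them. The other pairs also rested on the 2 farthest mice: without them r fell from 0.684 to 0.279 for *Flt3* and *Dntt* (rho = 0.539, exact p = 0.140), from 0.706 to 0.389 for *Flt3* and *Ikzf1* (rho = 0.576, exact p = 0.114) and from 0.762 to 0.310 for *Ikzf1* and *Satb1* (rho = 0.588, exact p = 0.0930). The lowest r was that of *Satb1* and *Cd79a* (-0.605, exact p = 0.124, rho = -0.309, exact p = 0.429, and -0.529 without the 2 farthest mice). *Rag2* stood between the blocks, with r of 0.760 to *Il7r* (exact p = 0.0164, rho = 0.733, and 0.277 without the 2 farthest mice), 0.704 to *Dntt* (exact p = 0.0176, rho = 0.733, and 0.539 without them) and 0.0464 to *Cd79a* (exact p = 0.929, rho = 0.261, and -0.327 without them). These r pool both genotypes, which differed across the blocks. Within CM, pairs across the blocks had r of 0.354 (*Rag1* and *Satb1*) to 0.970 (*Il7r* and *Flt3*). Within CM/miR-126Δ/Δ they had r of -0.962 (*Flt3* and *Cd79a*) to 0.401 (*Il7r* and *Dntt*).

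**Figure D4:**
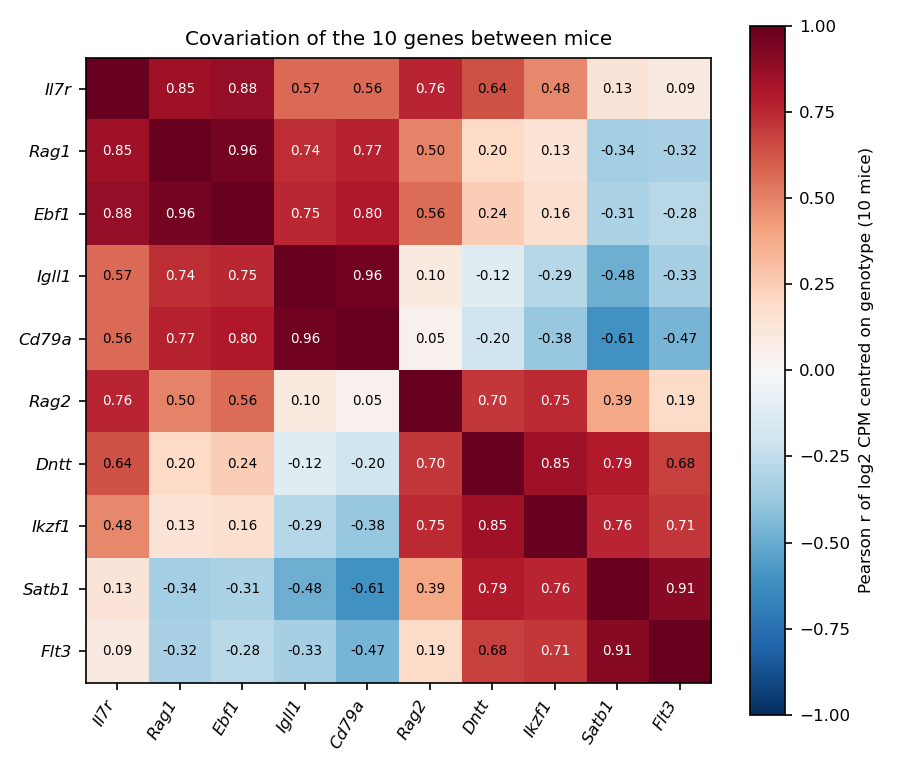
Pearson r of log2 CPM centred on the mean of each genotype, over 10 mice, for each pair of the 10 genes (colour scale from -1 to 1). *Il7r*, *Rag1*, *Ebf1*, *Igll1* and *Cd79a* form the upper left block and *Dntt*, *Ikzf1*, *Satb1* and *Flt3* the lower right block, with *Rag2* between them. Both genotypes are pooled: across the blocks r was 0.354 to 0.970 within CM and -0.962 to 0.401 within CM/miR-126Δ/Δ.

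Ranked against 13441 genes by r, *Ebf1* was the 8th and *Rag1* the 29th most like *Il7r*, *Satb1* was the 18th most like *Flt3*, and *Ikzf1* and *Satb1* were the 15th and 49th most like *Dntt*. Outside the set, the genes most like *Il7r* were *Hoxb5os*, *Gm19522*, *Nol7*, *Gm38499* and *Thap6* (r = 0.928 to 0.892), those most like *Flt3* were *Med13l*, *Notch1*, *Scpep1*, *Zmiz1* and *Mef2d* (r = 0.939 to 0.933), and those most like *Dntt* were *Kmo*, *Lpar1*, *2410004P03Rik*, *Cd6* and *Ift57* (r = 0.924 to 0.897). These ranks are a description over 10 mice. *Hoxb5os*, *Gm19522* and *Gm38499* had mean levels of 0.639, 0.409 and 0.599 CPM, so their ranks rest on few reads.

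*Flt3* and the B-lineage members did not stand in the same order in the 2 genotypes. Among CM mice, mouse 2 had the most *Flt3* (497 CPM) and the most *Cd79a* (2.18 CPM). CM/miR-126Δ/Δ mice 3 and 5, with 492 and 456 CPM of *Flt3*, had 0.0435 and 0.329 CPM of *Cd79a*, and mouse 4, with 359 CPM of *Flt3*, had 2.97 CPM. The difference in slope was computed because of these values, so that its p does not support the pattern independently. It was fitted as a product term of genotype and *Flt3* in edgeR's quasi-likelihood fit of 18746 genes. For *Cd79a* it was -12.5 (SE 2.13, Benjamini-Hochberg adjusted p = 0.0462), for *Ebf1* -8.31 (SE 1.49, adjusted p = 0.0509), for *Rag1* -7.38 (SE 1.68, adjusted p = 0.0888), for *Il7r* -4.33 (SE 1.06, adjusted p = 0.108) and for *Igll1* -14.4 (SE 3.68, adjusted p = 0.121). The threshold covers this covariate alone, and the product terms with *Il7r* and with *Dntt*, fitted in the same way, called no gene in edgeR (lowest adjusted p = 0.260 and 1, with 993 and 663 genes at an unadjusted p under 0.05). With *Flt3*, 1 of 9 members passed the adjusted threshold, against 32 of 18746 genes (0.171%), and 5 of 9 had an unadjusted p under 0.05, against 12% of genes (2251 of 18746). The slope of *Satb1* on *Flt3* had a difference of 0.33 (SE 0.367) between genotypes. The product term of *Cd79a* kept its sign in each of 18 other settings, at -16.5 to -9.80, and its adjusted p ran from 0.000331 to 0.334, under 0.05 in 8 of them. Without CM/miR-126Δ/Δ mouse 3 the adjusted p was 0.234, and with CM mouse 3 left out it was 0.00215.

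**Figure D5:**
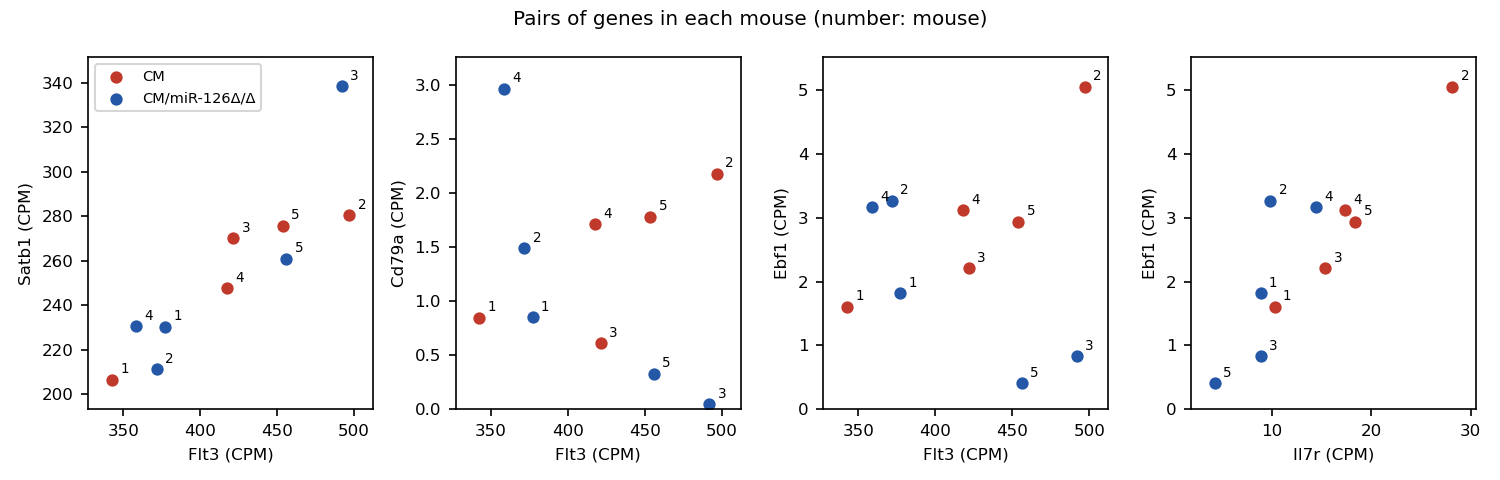
CPM of 2 genes in each mouse, red for CM and blue for CM/miR-126Δ/Δ, with the mouse number; the axes of *Flt3*, *Il7r* and *Satb1* do not start at 0. *Satb1* tended to be higher in mice with more *Flt3* in both groups, *Cd79a* and *Ebf1* tended to be higher in CM mice with more *Flt3* and lower in CM/miR-126Δ/Δ mice with more *Flt3*, and *Ebf1* tended to be higher in mice with more *Il7r* in both groups.

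The promoters of the 5 members of the first block are shown because these genes varied together between mice. Each is the 250 bases before the annotated start, on the strand of the gene (RefSeq, GRCm38.p6), and all 10 members were matched. Capitals mark matches, on either strand, to the letters TGTGGT (RUNX, the partner of CBFB), CCCNNGGG (EBF), CAGGTG (an E-box bound by E2A), TGGGAA (Ikaros), TTCNNNGAA (STAT5, which acts downstream of the IL-7 receptor) and GGAAGT (PU.1).
Il7r promoter (chr15:9529877-9530126, minus strand): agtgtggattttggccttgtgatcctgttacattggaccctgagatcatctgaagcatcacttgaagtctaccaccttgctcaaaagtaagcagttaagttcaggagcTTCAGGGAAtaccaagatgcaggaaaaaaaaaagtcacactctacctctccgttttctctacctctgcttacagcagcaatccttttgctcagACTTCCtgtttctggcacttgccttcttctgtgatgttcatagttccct
Rag1 promoter (chr2:101649533-101649782, minus strand): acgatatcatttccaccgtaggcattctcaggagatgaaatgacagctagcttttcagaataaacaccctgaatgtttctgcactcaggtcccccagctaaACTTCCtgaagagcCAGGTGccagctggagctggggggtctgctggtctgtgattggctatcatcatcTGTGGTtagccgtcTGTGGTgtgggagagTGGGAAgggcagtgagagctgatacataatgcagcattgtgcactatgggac
Ebf1 promoter (chr11:44617850-44618099, plus strand): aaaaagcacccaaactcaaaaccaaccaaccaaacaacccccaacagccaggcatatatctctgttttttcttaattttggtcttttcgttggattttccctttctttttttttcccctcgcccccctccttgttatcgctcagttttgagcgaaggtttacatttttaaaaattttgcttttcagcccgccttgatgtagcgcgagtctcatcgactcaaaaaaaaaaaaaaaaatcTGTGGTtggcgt
Igll1 promoter (chr16:16863986-16864235, minus strand): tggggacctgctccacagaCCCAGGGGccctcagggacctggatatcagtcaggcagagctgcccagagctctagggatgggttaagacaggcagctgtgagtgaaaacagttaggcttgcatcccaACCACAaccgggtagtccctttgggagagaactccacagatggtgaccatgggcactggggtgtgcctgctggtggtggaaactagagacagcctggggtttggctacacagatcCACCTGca
Cd79a promoter (chr7:24897247-24897496, plus strand): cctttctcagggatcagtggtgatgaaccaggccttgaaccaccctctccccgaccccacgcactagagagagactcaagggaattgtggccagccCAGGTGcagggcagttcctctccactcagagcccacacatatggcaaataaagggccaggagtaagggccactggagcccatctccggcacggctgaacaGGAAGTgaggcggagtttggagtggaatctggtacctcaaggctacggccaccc
The RUNX letters stood in 3 of the 10 promoters, those of *Rag1*, *Ebf1* and *Igll1*, and in 14.0% of 32851 promoters. The E-box letters stood in those of *Rag1*, *Igll1* and *Cd79a* and in 17.2% of promoters, and the EBF letters in those of *Igll1* and *Ikzf1* and in 11.8%. The STAT5 letters were found in that of *Il7r* and in 7.02% of promoters, the PU.1 letters in those of *Il7r*, *Flt3*, *Rag1* and *Cd79a* and in 19.7%, and the Ikaros letters in that of *Rag1* and in 21.6%. No 2 matches overlapped in the promoters shown. A match of letters is a description of the window and says nothing of binding.

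The wider lymphoid genes were read from 6 lists holding 111 fitted genes that are not members. Of these, 1 met the call rule (0.288% of all genes did), *Blnk*, the adaptor that links the pre-B-cell receptor to its downstream signal. *Blnk* measured 7.39, 11.0, 7.37, 12.2 and 11.3 CPM in the CM mice, and 4.27, 6.54, 4.62, 10.2 and 3.99 CPM in the CM/miR-126Δ/Δ mice. All but CM/miR-126Δ/Δ mouse 4 lay below every CM mouse, and the log2 fold change was -0.74 (SE 0.246, edgeR adjusted p = 0.664). Its slope on *Il7r* between mice of the same genotype was 0.64 (SE 0.169, edgeR unadjusted p = 0.00227, adjusted p = 0.350).

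Most B-lineage genes outside the set also had a slope on *Il7r* above 0. Of 23, 1 met the call rule (0.288% of all genes did) and 19 had a log2 fold change below 0 (57.5% of expressed genes did), with a list median of -0.16. A slope on *Il7r* above 0 was found for 21 (46.2% of expressed genes), 7 of them with an unadjusted p under 0.05 (6.87% of all genes in either direction). The most abundant of the list, *Syk*, *Cd24a* and *Cd74*, had log2 fold changes of -0.10 (SE 0.0566), -0.01 (SE 0.0604) and -0.51 (SE 0.271). Of the 14 LMPP and CLP genes (lymphoid-primed multipotent and common lymphoid progenitors), 14 were below 0 (57.5% of expressed genes were), with a median of -0.14, 4 had an unadjusted p under 0.05 (1239 of 18747 genes did, 6.61%) and 0 met the call rule. *Cd34* (-0.11, SE 0.0827) and *Cd48* (-0.10, SE 0.0732) were among the most abundant. Against the same 57.5% and 6.61%, 15 of 18 genes of IL-7 and FLT3 signalling were below 0 and 2 had an unadjusted p under 0.05. Their median was -0.04, and 0 met the call rule. The most abundant were *Pim1* (-0.13, SE 0.0874) and *Mcl1* (-0.25, SE 0.168), a kinase and a survival factor induced by cytokine signals, and the receptor kinase *Jak1* (-0.04, SE 0.0688). No gene of the lymphoid lists had an edgeR adjusted p under 0.05 between genotypes.

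The other lymphoid lists held no called gene. For comparison, 57.5% of expressed genes were below 0, and 6.61% of all genes had an unadjusted p under 0.05 between genotypes. Of the 26 regulators of lymphoid priming 14 were below 0 (median -0.01), and the most abundant, *Lmo2*, *Myb* and *Lyl1*, had log2 fold changes of 0.07 (SE 0.0768), 0.02 (SE 0.0794) and -0.12 (SE 0.0610). Of the 12 genes of recombination and end joining 5 were below 0 (median 0.09), and the 2 with an unadjusted p under 0.05 were both higher in CM/miR-126Δ/Δ. The most abundant, the general repair genes *Xrcc6*, *Atm* and *Xrcc5*, had log2 fold changes of -0.09 (SE 0.0617), 0.11 (SE 0.0899) and 0.11 (SE 0.0938). Of the 18 T- and NK-lineage genes 14 were below 0 (median -0.09), none had an unadjusted p under 0.05 between genotypes, and 16 had a slope on *Il7r* above 0 (46.2% of expressed genes did). The most abundant were *Nkg7* (-0.03, SE 0.140), *Thy1* (0.10, SE 0.185) and *Gata3* (-0.12, SE 0.0899). This list also holds genes below 1 RPKM, such as *Cd8a* (mean 0.228 RPKM), which the share of expressed genes leaves out. The remaining lymphoid lists rose less often with *Il7r*. A slope above 0 was found for 7 of 14 LMPP and CLP genes and 11 of 18 genes of IL-7 and FLT3 signalling. It was found for 15 of 26 regulators and 5 of 12 genes of recombination and end joining.

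Markers of other cells were summed for each mouse. Mature B and plasma cell markers (10 of the 12 listed were in the table) summed to 53.0 to 68.7 CPM in the CM mice, and 42.4 to 113 CPM in the CM/miR-126Δ/Δ mice, and 4 of 10 were below 0 (57.5% of expressed genes were). The most abundant were *Jchain* (log2 fold change 0.92, SE 0.422), *Sdc1* (-0.21, SE 0.141) and *Mzb1* (-0.06, SE 0.266). Markers of plasmacytoid dendritic cells, some of which transcribe *Rag1* and *Dntt*, summed to 449 to 579 CPM in the CM mice, and 501 to 577 CPM in the CM/miR-126Δ/Δ mice, sums made up mostly of *Tcf4* (0.02, SE 0.0822) and *Runx2* (0.05, SE 0.0692), with *Bst2* (-0.19, SE 0.0968) next per length. Of those 10, 7 were below 0 (57.5% of expressed genes were), with a list median of -0.72, the lowest of the 12 lists. An unadjusted p under 0.05 was found for 4 (6.61% of all genes), all lower in CM/miR-126Δ/Δ, and 2 met the call rule (0.288% of all genes did), also lower. *Siglech*, a defining receptor of that cell, measured 5.15, 4.99, 10.1, 4.17 and 3.86 CPM in the CM mice, and 3.93, 2.95, 3.14, 3.21 and 1.73 CPM in the CM/miR-126Δ/Δ mice, and *Cox6a2* had a log2 fold change of -1.12 (SE 0.366, edgeR adjusted p = 0.661). The slope of *Siglech* on *Il7r* was 0.18 (SE 0.287) and that of *Cox6a2* 0.81 (SE 0.280). The part of these cells in the level of *Il7r* was not tested. Some genes stand in 2 lists. *Ccr9* and *Ly6d*, among the 4 just counted, were also among those counted for the LMPP and CLP genes. *Tcf4* and *Runx2* are also in the list of regulators.

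In CM/miR-126Δ/Δ, where mice 3 and 5 had the least *Cd79a* and mouse 4 the most, the marker lists did not follow a single order. The sum of the T- and NK-lineage genes was 98.6 and 107 CPM in mice 3 and 5 against 147 CPM in mouse 4. The mature B and plasma cell sum ran the other way, at 74.6 and 113 CPM against 42.4 CPM, and so did the granulocyte-monocyte sum, at 4842 and 3309 CPM against 2823 CPM. Within the granulocyte-monocyte list the late granulocyte genes stood apart from that sum: *S100a8* and *Ngp*, picked after their values were seen, reached 72.2 and 78.6 CPM in mouse 4 and stayed at or below 1.32 CPM in mice 3 and 5. Of the 16 granulocyte-monocyte markers, led by *Mpo* (0.02, SE 0.249), *Ctsg* (-0.01, SE 0.192) and *Prtn3* (0.02, SE 0.136), 6 had a slope on *Il7r* above 0 with an unadjusted p under 0.05 (6.87% of all genes in either direction) and none passed after adjustment, whereas the slopes of *Mpo* (-0.34, SE 0.248), *Ctsg* (-0.21, SE 0.188) and *Prtn3* (-0.12, SE 0.132) were below 0. The 6 were *Ly6g*, *S100a8*, *S100a9*, *Ltf*, *Camp* and *Ngp*. Their slopes ran from 3.56 (*S100a9*, SE 1.08) to 4.76 (*Camp*, SE 1.46). Each was steeper than the steepest member, *Igll1* (1.90, SE 0.621). The sum of that list was 2196 to 4132 CPM in the CM mice, and 1837 to 4842 CPM in the CM/miR-126Δ/Δ mice. Erythroid markers (12 listed, 9 fitted) summed to 442 to 761 CPM and 599 to 743.4 CPM, with *Car2* (0.19, SE 0.0946), *Car1* (0.69, SE 0.544) and *Tfrc* (-0.14, SE 0.127) as the most abundant. The 9 megakaryocyte markers summed to 254 to 375 CPM and 214 to 338 CPM, with *Itga2b* (-0.26, SE 0.132) and *Gp9* (0.05, SE 0.196) among the most abundant. The 12 LSK and stem cell markers summed to 2917 to 3534 CPM and 2949 to 3648 CPM, led by *Cd34*, *Kit* (0.11, SE 0.106) and the stem cell factor *Hlf* (0.31, SE 0.0990), and 4 of them had an unadjusted p under 0.05 (6.61% of all genes did), all higher in CM/miR-126Δ/Δ. A slope on *Il7r* above 0 was not particular to lymphoid lists. It was found for 8 of 10 mature B and plasma cell markers, 8 of 10 plasmacytoid dendritic markers and 7 of 9 megakaryocyte markers. It was also found for 7 of 16 granulocyte-monocyte markers, 5 of 12 LSK and stem cell markers and 2 of 9 erythroid markers. The part of mature cells in the variation of *Igll1*, *Cd79a*, *Ebf1* and *Rag1* was not tested.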

How the data were processed

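Ribosome-depleted, stranded libraries were made from total RNA of sorted LSK cells of 5 mice per genotype. Per the methods and the submitters' processing notes, the authors trimmed the reads, aligned them with TopHat2 to mm10 and counted them per RefSeq gene with HTSeq (0.6.1p1). The deposited values used here are raw counts per gene. Whether the counting used strand is not given in the sources used here. The other deposited table holds the same counts divided by 1 constant per library and was not used.

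Genes without any count were dropped, and the other 18747 of 25078 were fitted in edgeR 4.0.16 (R 4.3.3) with TMM factors, genotype as the only term, and the quasi-likelihood F-test in the form of edgeR 3, as in the study. CPM and RPKM were computed from the counts and TMM factors. A gene was called at p at or below 0.01 with a 1.5-fold change or more if either group reached a mean of 1 RPKM. Slopes used log2 CPM (prior count 2) of *Il7r*, *Flt3* or *Dntt* as a further term, with Benjamini-Hochberg adjustment over all genes. Likeness was ranked over genes that reached 10 counts in 5 or more libraries. The fits were tested on simulated data.

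The members and gene lists were chosen with earlier results of these data known. Named are all members, every called gene and the 3 most abundant genes of each list, and the 5 genes most like *Il7r*, *Flt3* and *Dntt*. Some genes under this rule are not reported here. Alternatives were RLE factors, filterByExpr, DESeq2 1.42.0, the edgeR 4 quasi-likelihood, the replicate number as a block, no *Rn45s*, no RPKM requirement, a prior count of 0.5 and each mouse left out. Sex as a covariate and the product of genotype and covariate were added after the values were seen.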

Additional observations from a re-analysis of the deposited data

Results flagged for a closer look

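The slope of *Cd79a* on *Flt3* between mice is listed because the product term of genotype and *Flt3* passed its threshold. The term was fitted because of the values themselves, so that its p does not support a difference independently, and 12% of all genes had an unadjusted p under 0.05 for it. The slope in CM/miR-126Δ/Δ minus that in CM was -12.53 (log2 per log2 of *Flt3*, SE 2.13, edgeR quasi-likelihood, Benjamini-Hochberg adjusted p = 0.0462 over 18746 genes). The adjusted p was under 0.05 in 3 of the 10 fits that left out 1 mouse. In the CM/miR-126Δ/Δ group the value rests on mice 3, 4 and 5, with 1, 75 and 8 counts of *Cd79a*. The cause was not tested.

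Single mice far from the rest of their group were sought with Dixon's test for the 10 genes and the summed marker lists. None of 44 groups passed its 95% critical value for 5 mice (0.71), where chance would give about 2.2.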

How the results depend on the processing

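The log2 fold change of *Il7r* stayed below 0 in all 18 settings (-1.16 to -0.73), as did those of *Rag1*, *Rag2*, *Dntt*, *Ebf1*, *Igll1* and *Cd79a*, whereas those of *Flt3*, *Ikzf1* and *Satb1* turned above 0 in some. Members meeting the call rule numbered 2 in the main fit (*Il7r* and *Rag2*) and 1, *Il7r*, with RLE factors (1) or filterByExpr (1), and ran from 0 to 2 with 1 mouse left out, 0 without CM mouse 2 or without CM/miR-126Δ/Δ mouse 1. Members below 0 ran from 7 to 10 with 1 mouse left out. All genes called numbered 54, and 111 without the RPKM requirement and 33 to 128 with 1 mouse left out. Wider lymphoid genes called numbered 1, and 0 with RLE factors, 0 with filterByExpr, 2 without the RPKM requirement and 0 to 3 with 1 mouse left out. Genes varying with *Il7r*, *Flt3* and *Dntt* numbered 0 each, and 41, 28 and 3 with DESeq2. With 1 mouse left out they ran from 0 to 12 for *Il7r* (12 without CM mouse 2 and 4 without CM/miR-126Δ/Δ mouse 3) and stayed at 0 for *Flt3* and *Dntt*. Sex as a covariate, added after the values were seen, changed no count by over 1.5 times. The cause of these changes was not tested.

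Replicate numbers were not treated as pairs, since the labels give no shared litter or batch and 4 of 5 same-numbered pairs, not all, correlated over 0.1 (-0.00355 to 0.430, mean 0.211, against a mean of -0.0535 for other pairs), and 5 of 10 libraries were closest to their own number, a hint from the data and not the design. With the replicate block 115 genes were called, 3 members among them (*Igll1*, at a log2 fold change of -1.33, beside *Il7r* and *Rag2*), and 27, 2 and 5 genes varied with *Il7r*, *Flt3* and *Dntt*. Members with an unadjusted p under 0.05 fell from 6 to 4 of 9 on *Il7r*, losing *Rag2* and *Igll1*, and from 5 to 3 of 9 on *Dntt*, losing *Rag2* and *Ikzf1*, and the product term of *Cd79a* and *Flt3* lost its threshold (-9.80, edgeR adjusted p = 0.334). Depth limited *Igll1*, *Cd79a* and *Ebf1*, at 0 to 153 counts per library. Whether the mice came from separate litters is not given, so the p-values measure the spread between these mice.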
